A study of Danio rerio with 8 samples.

Results

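The respiratory chain and ATP synthase genes were examined in kdrl-positive cells of zebrafish embryos, in sf3b1 mutants and their siblings. kdrl is an endothelial gene, but the libraries also held markers of other cell types, as given below. Members were the genes whose Ensembl symbol, without regard to case, begins with mt-nd, mt-co, mt-cyb, mt-atp, ndufa, ndufb, ndufc, ndufs, ndufv, sdha, sdhb, sdhc, sdhd, uqcr, cox4 to cox8 or atp5, or is cyc1. This gave 122 of the 31901 genes in the table, 13 encoded by the mitochondrial genome and 109 by the nuclear genome. Genes were matched by symbol alone, but the symbols were chosen with earlier results of these data known. By symbol, the nuclear members comprised 42 complex I genes, 5 complex II genes, 9 complex III genes, 21 complex IV genes, 20 ATP synthase (complex V) genes and 12 assembly factor genes of the ndufaf and sdhaf names.

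The series holds 4 libraries of kdrl-positive cells from sf3b1 mutants and 4 of kdrl-positive cells from siblings, all taken from embryos 28 hours after fertilization. Total RNA depleted of ribosomal RNA was sequenced, so transcripts were read whether or not they carried a poly(A) tail. The product of sf3b1 belongs to the U2 snRNP, the part of the spliceosome that binds the branch point of introns in the nucleus. The labels name neither the allele, nor the siblings' genotype, nor how many embryos went into a library. They do not say how the kdrl-positive cells were marked, but the deposited counts bear the name kdrlgfp. Since separate clutches are not stated either, the p-values reflect spread among these libraries alone, and that spread could be technical.

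The respiratory chain passes electrons from NADH (complex I) and succinate (complex II) through ubiquinone, complex III and cytochrome c to oxygen at complex IV, and ATP synthase uses the proton gradient so formed. Complexes I, III, IV and V are built from subunits of both genomes, while complex II is encoded by the nucleus alone. Mitochondrial transcripts are cut from long precursors made by a dedicated polymerase and contain no introns in vertebrates, whereas most nuclear subunit genes are spliced. Endothelial cells are known to rely mainly on glycolysis for ATP, and their respiratory chain is also needed for growth.

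Libraries held 10035886 to 13277963 counts in mutants and 10307076 to 12237885 in siblings, and 17978 to 23529 and 18546 to 23547 genes had a count. Mutant replicate 4 and sibling replicate 2 had the fewest genes with a count. The mutated gene, SF3B1 (ENSDARG00000056138), was measured at 151, 149.6, 188 and 162 CPM (counts scaled to a common TMM library size) in mutants, against 313, 212, 311 and 354 CPM in siblings, with no overlap. Among markers of cell types, 4 of 5 erythroid, 5 of 6 leukocyte and 3 of 5 neural identifiers tested were lower in mutants. Of all genes tested, 11.4% were lower. The other erythroid identifier, the regulator gene gata1a, went the opposite way and did not pass (0.74 ± 0.286, adjusted p = 0.0831). It averaged 51.7 CPM in mutants and 31.1 CPM in siblings, and the groups overlapped. Several of the leukocyte identifiers share the symbol MFAP4. Not every listed marker symbol was found (5 of 8 erythroid, 4 of 6 leukocyte, 5 of 6 neural, 6 of 10 muscle and 4 of 6 endothelial). Of the muscle markers 1 of 6 was higher, and none of 4 epidermal and 4 endothelial ones passed. Summed erythroid markers spanned 3349 to 4623 CPM in mutants and 7216 to 13006 CPM in siblings, and summed neural markers 184 to 215 CPM and 563 to 1059 CPM. In siblings, hbae3 (5076 CPM on average) and hbbe3 (4731 CPM) led the erythroid sums, and ELAVL3 (577 CPM) led the neural ones. Leukocyte markers summed to 73.2 to 156 CPM in mutants and 260.2 to 419 CPM in siblings, with 1 identifier at 0 throughout. The sums overlapped for muscle (88.1 to 367 CPM in mutants, 172 to 282 CPM in siblings), epidermis (997 to 6541 and 1321 to 6105 CPM) and endothelium (1536 to 3352 and 1573 to 2865 CPM). The part of these differences in the results that follow was not tested, and in sorted bulk samples fewer cells of a type cannot be told apart from less RNA per cell.

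Of 111 respiratory chain members tested, 20 were higher in the mutants, 1 was lower and 90 did not pass. The median log2 fold change was 0.68 over the mitochondrially encoded and 0.34 over the nuclear members tested. Log2 fold changes of mutant over sibling and their adjusted p come from edgeR's quasi-likelihood test over all 18289 genes with enough counts, with Benjamini-Hochberg adjustment and 0.05 as the threshold. Of the 13 mitochondrially encoded members, 6 were higher, none was lower and 7 did not pass. Of 98 nuclear members tested, 14 were higher, 1 was lower and 83 did not pass, and 11 nuclear members had too few counts to be tested. Among all genes tested, 9.92% were called higher and 11.4% lower, 21.3% in either direction. Of the nuclear members 15.3% passed, 14.3% higher and 1.02% lower, and of the mitochondrially encoded members 46.2% passed, all higher. At an unadjusted p under 0.05, 8 mitochondrially encoded members were higher and 0 lower, and DESeq2 also called 8 and 0. Without mutant replicate 4 and sibling replicate 2, 10 mitochondrially encoded and 14 nuclear members were higher, and without mutant replicate 2 alone the nuclear count was 9.

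**Figure D1:**
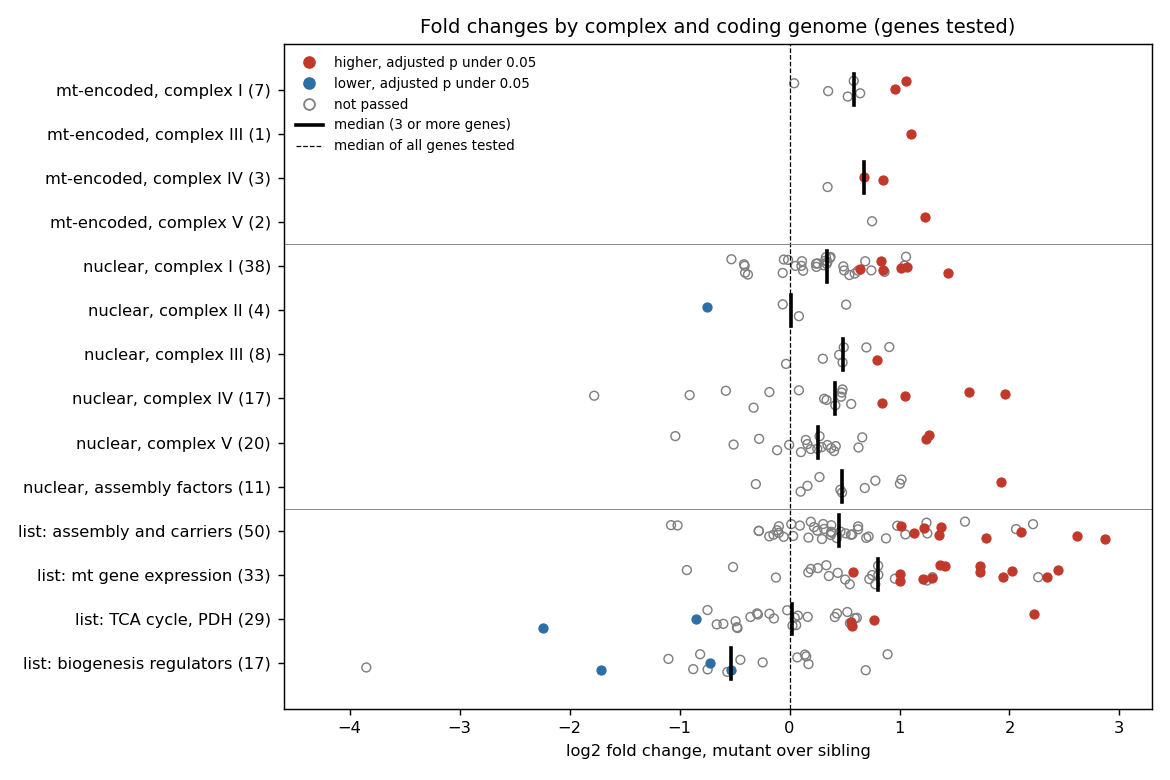
Log2 fold change of mutant over sibling (horizontal axis) for each tested member by complex and coding genome, and for 4 lists of related genes below; filled points passed an adjusted p of 0.05, open points did not, and the number of genes tested is given in parentheses. All 13 mitochondrially encoded members lie above 0, with a median of 0.68, and 76 of 98 nuclear members do, with a median of 0.34.

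The plot of fold changes by complex shows how the members spread. The median over all genes tested was -0.0004. Log2 fold changes lay above 0 in 13 of 13 mitochondrially encoded members and in 76 of 98 nuclear members (77.6%), where 50% of all genes tested did. By complex, the nuclear medians were 0.34 for complex I, 0.01 for complex II, 0.49 for complex III, 0.42 for complex IV, 0.26 for complex V and 0.48 for the assembly factors. Of the 4 complex II genes, 2 lay above 0. Every mutant library lay above every sibling library in 6 of 13 mitochondrially encoded and 22 of 98 nuclear members, where 12.6% of all genes tested did so. The opposite order occurred in 0 and 2 members, where 14.1% of all genes tested had it.

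Mitochondrially encoded members took a larger share of each mutant library. They held 1.04%, 0.999%, 0.853% and 0.753% of the counts in mutants, against 0.601%, 0.588%, 0.536% and 0.398% in siblings. The lowest mutant library stood above the highest sibling library. The share averaged 0.912% ± 0.133 in mutants and 0.531% ± 0.0929 in siblings (SD, n = 4 each), a ratio of 1.72. The exact 95% binomial interval, which covers counting error only, was 0.848% to 0.859% in mutant replicate 3, the shallowest library, so the spread between libraries far exceeded it. Without mutant replicate 4 and sibling replicate 2, the difference was 0.453 percentage points, against 0.381 with all libraries. Nuclear members held 0.363%, 0.381%, 0.340% and 0.369% in mutants and 0.293%, 0.302%, 0.283% and 0.279% in siblings, again without overlap, a ratio of 1.26.

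**Figure D2:**
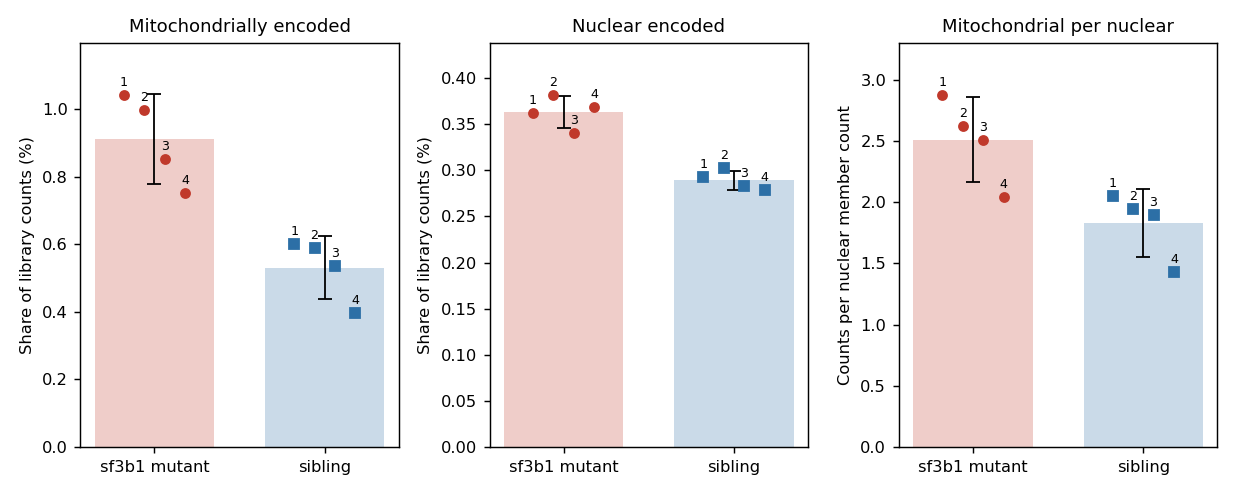
Share of library counts in the 13 mitochondrially encoded members (left) and the 109 nuclear members (middle), and mitochondrial counts per nuclear member count (right), by library; bars are means, error bars SD over 4 libraries, and small numbers the replicates. Both shares separate the groups, while in the ratio mutant replicate 4 (2.04) lies within the sibling range of 1.43 to 2.05.

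Counts of mitochondrially encoded members per count of a nuclear member were 2.87, 2.62, 2.51 and 2.04 in mutants, against 2.05, 1.94, 1.90 and 1.43 in siblings. The ratio averaged 2.51 ± 0.347 and 1.83 ± 0.277, and the groups overlapped by a single library, mutant replicate 4. It is not corrected for transcript length and serves only to compare libraries. Since it sums over the chosen members, no test of it is given.

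Within each group the libraries with more of the endothelial gene kdrl had the smaller mitochondrial shares. kdrl (ENSDARG00000105215) was measured at 689.8, 992, 1239.9 and 1625 CPM in mutant replicates 1 to 4, whose mitochondrial shares are given above in the same order. In sibling replicates 1 to 4 it was measured at 628, 629.9, 884 and 1064 CPM, and the groups overlapped (0.50 ± 0.241, adjusted p = 0.167). Sibling replicates 1 and 2 hardly differed in kdrl, and in each group the library with the most kdrl had the smallest share. cdh5, a junction gene of endothelium, ran from 510.6 to 1008 CPM in mutants and from 589 to 1097 CPM in siblings, and its highest library was again the one with the smallest share. Its lowest sibling library was replicate 2, whereas the largest sibling share was in replicate 1. With 4 libraries per group no correlation is given, and the part of endothelial content in the mitochondrial share was not tested.

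**Figure D3:**
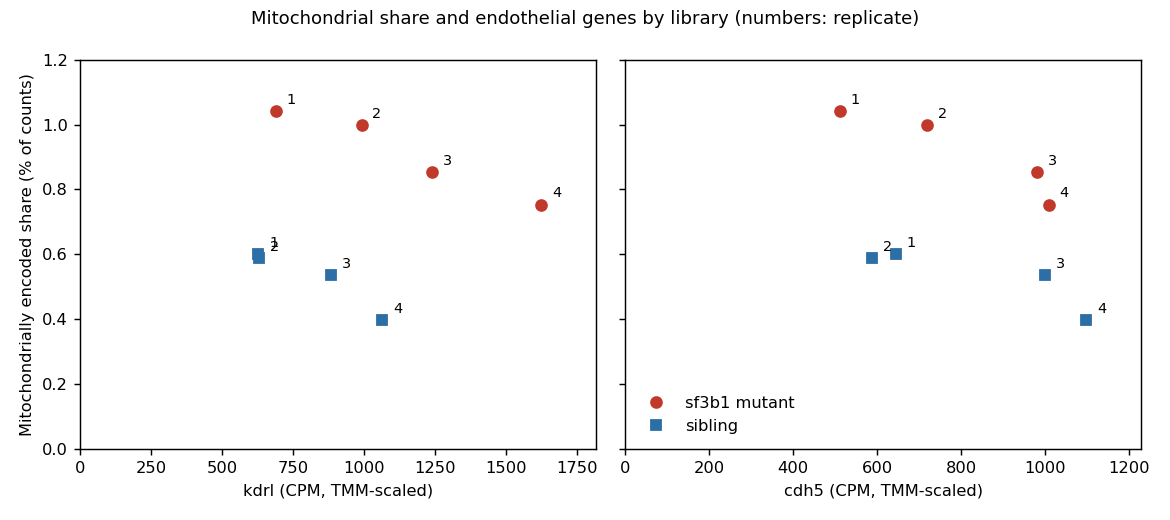
Mitochondrially encoded share of counts (vertical axis, percent) against kdrl (left) and cdh5 (right) in CPM, one point per library with its replicate number. All mutant libraries lie above all sibling libraries on the vertical axis, mutant replicates 3 and 4 have more kdrl than any sibling library, and within each group the share is lowest in replicate 4.

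Among the mitochondrially encoded members, cytochrome b and 5 subunits of complexes I, IV and V passed. MT-CYB (ENSDARG00000063924), which encodes cytochrome b of complex III, measured 1281, 1276, 1029.7 and 971 CPM in mutants, against 659.7, 531, 561 and 374 CPM in siblings. Every mutant library lay above every sibling library, and sibling replicate 4 was lowest. The log2 fold change was 1.101 ± 0.17 (SE, adjusted p = 0.000348). MT-ATP6 (ENSDARG00000063911), the membrane subunit of ATP synthase that forms the proton path, had 1121, 995, 633 and 592 CPM in mutants, against 444, 365, 402 and 214 CPM in siblings. The groups did not overlap, mutant replicates 1 and 2 were the highest libraries, and the log2 fold change was 1.23 ± 0.245 (adjusted p = 0.00288). mt-atp8 (ENSDARG00000063910), whose reading frame overlaps that of MT-ATP6, stood at 79.7, 78.0, 48.9 and 39.1 CPM in mutants, against 35.4, 31.7, 51.2 and 27.9 CPM in siblings, and the groups overlapped. Its log2 fold change of 0.75 ± 0.26 did not pass (adjusted p = 0.053), but passed without mutant replicate 4 (0.92, adjusted p = 0.0168) and without sibling replicate 3 (0.96, adjusted p = 0.0217). It also passed with RLE factors, upper-quartile scaling, no filter, DESeq2 and without mutant replicate 4 and sibling replicate 2 together (0.75 to 0.84, adjusted p = 0.0165 to 0.0478).

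**Figure D4:**
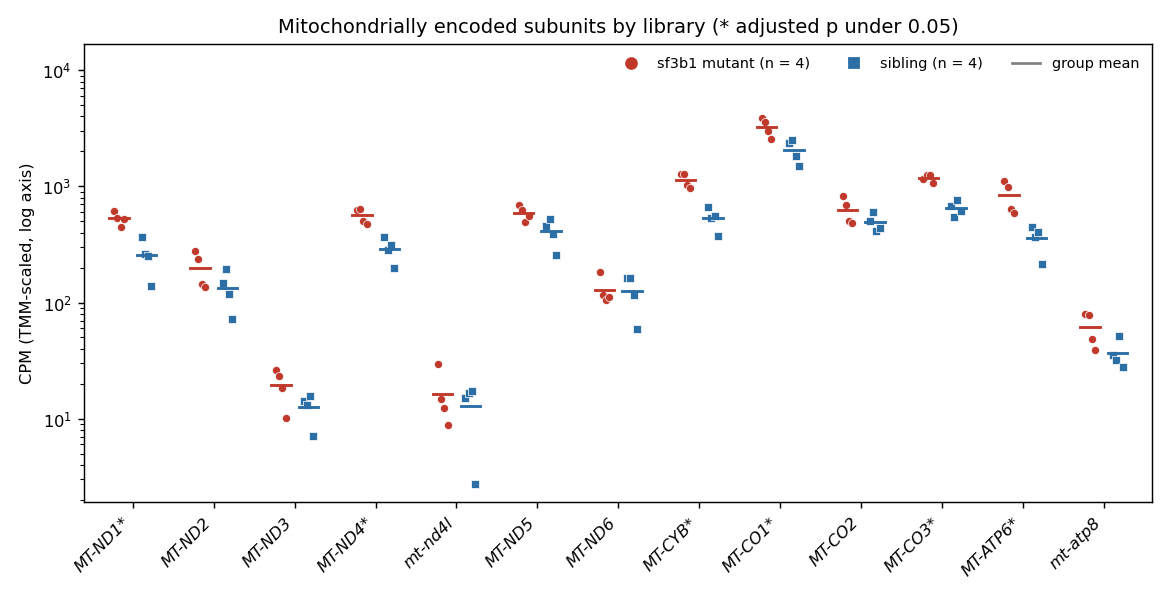
CPM (log axis) of the 13 mitochondrially encoded members in each mutant (circles) and sibling (squares) library, with group means as lines; an asterisk marks an adjusted p under 0.05. The 6 marked genes show no overlap between the groups, which the choice by adjusted p favours, while MT-ND6 and mt-nd4l overlap widely.

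The catalytic core of complex IV is made of 3 mitochondrially encoded subunits. MT-CO1 (ENSDARG00000063905), which holds the site of oxygen reduction, measured 3903, 3573, 3019.9 and 2558 CPM in mutants, against 2347, 2492, 1827 and 1504 CPM in siblings. The groups were separated by a narrow gap, between mutant replicate 4 and sibling replicate 2, and the log2 fold change was 0.68 ± 0.172 (adjusted p = 0.0112). MT-CO3 (ENSDARG00000063912) had 1148, 1245, 1254 and 1065 CPM, against 679.5, 541, 769 and 619.8 CPM. Its mutant libraries lay close together, with 1178 ± 89.2 CPM, and the log2 fold change was 0.85 ± 0.135 (adjusted p = 0.000418). MT-CO2 (ENSDARG00000063908), which receives the electrons from cytochrome c, stood at 819, 694, 499.6 and 482 CPM, against 505, 607, 416 and 435 CPM. The groups overlapped and the log2 fold change of 0.35 ± 0.183 did not pass (adjusted p = 0.213), except without mutant replicate 4 and sibling replicate 2 together (0.55, adjusted p = 0.045).

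Of the 7 mitochondrially encoded complex I subunits, which form part of its proton-pumping membrane arm, MT-ND1 and MT-ND4 passed. MT-ND1 (ENSDARG00000063895) measured 613, 539, 449 and 522 CPM in mutants, against 369.6, 259.5, 251 and 138 CPM in siblings, without overlap (1.06 ± 0.228, adjusted p = 0.00417). MT-ND4 (ENSDARG00000063917) had 630.5, 641, 504 and 472 CPM, against 364, 282, 312 and 199 CPM, also without overlap (0.96 ± 0.18, adjusted p = 0.00151). Both were highest in mutant replicates 1 or 2 and lowest in sibling replicate 4. MT-ND5 (ENSDARG00000063921) stood at 695, 620.5, 490.2 and 556 CPM, against 459, 529, 391 and 258 CPM, where only sibling replicate 2 reached into the mutant range. Its log2 fold change of 0.53 ± 0.193 (adjusted p = 0.0654) did not pass, but it passed with total counts, upper-quartile scaling, no filter and DESeq2 (0.54 to 0.59, adjusted p = 0.0205 to 0.0475), without sibling replicate 2 (0.66, adjusted p = 0.0287) and without mutant replicate 4 and sibling replicate 2 together (0.69, adjusted p = 0.0343).

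The other 4 overlapped. MT-ND2 (ENSDARG00000063899) averaged 199 ± 70.2 CPM in mutants and 133 ± 51.6 CPM in siblings (0.58 ± 0.294, adjusted p = 0.195), and passed without mutant replicate 4 and sibling replicate 2 together (0.96, adjusted p = 0.0255). MT-ND3 (ENSDARG00000063914) averaged 19.5 ± 7.06 and 12.5 ± 3.81 CPM (0.64 ± 0.343, adjusted p = 0.218). mt-nd4l (ENSDARG00000063916), whose reading frame overlaps that of MT-ND4, measured 29.5, 14.8, 12.4 and 8.79 CPM, against 14.9, 16.5, 17.2 and 2.73 CPM (0.35 ± 0.495, adjusted p = 0.69). In mutants it was high in replicate 1 alone, without which the difference turned to -0.10. The counter is not named, so how reads shared by mt-nd4l and MT-ND4, or by mt-atp8 and MT-ATP6, were assigned is not known. The values of these overlapping genes may therefore not be separate measures.

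MT-ND6 (ENSDARG00000063922) is the only protein gene on the light strand of vertebrate mitochondrial DNA. It had 183, 115, 106 and 112 CPM in mutants, against 164, 163, 116 and 58.8 CPM in siblings. Mutant replicate 1 was the highest library and sibling replicate 4 the lowest, and the rest lay between 106 and 164 CPM. The log2 fold change was 0.04 ± 0.283 (adjusted p = 0.942), the smallest of the 13, and it was -0.17 without mutant replicate 1 and -0.19 without sibling replicate 4. Within the mitochondrially encoded counts, MT-ND6 took 1.69%, 1.146%, 1.29% and 1.49% in mutants, against 2.64%, 2.71%, 2.203% and 1.504% in siblings, where sibling replicate 4 fell within the mutant range. MT-CYB took 11.9%, 12.7%, 12.5% and 12.9% in mutants, against 10.6%, 8.81%, 10.7% and 9.57% in siblings, without overlap. The strand setting of the counting is not given in the sources used here, so reads from the opposite strand of MT-ND6 may be among its counts.

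Mutant replicate 1 was the highest mutant library in 11 of the 13 genes and mutant replicate 4 the lowest in 10, while sibling replicate 4 was the lowest sibling library in 11. The highest sibling library was replicate 1 in 5 genes and replicates 2 and 3 in 4 genes each. The 6 genes that passed did so on leaving out any single library.

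The nuclear members that passed were spread over all 5 complexes and the assembly factors, and the plot of these 15 genes shows no overlap between groups. Choosing genes by adjusted p in the same libraries favours such separation, so it adds no support to the calls. Outside complex II no nuclear class had a lower member with all libraries by edgeR or DESeq2, and complex V had 1, atp5mea, at an unadjusted p under 0.05. The share of tested nuclear members called higher was 15.8% in complex I, 0% in complex II and 12.5% in complex III. It was 23.5% in complex IV, 10% in complex V and 9.09% in the assembly factors, against 9.92% of all genes tested.

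**Figure D5:**
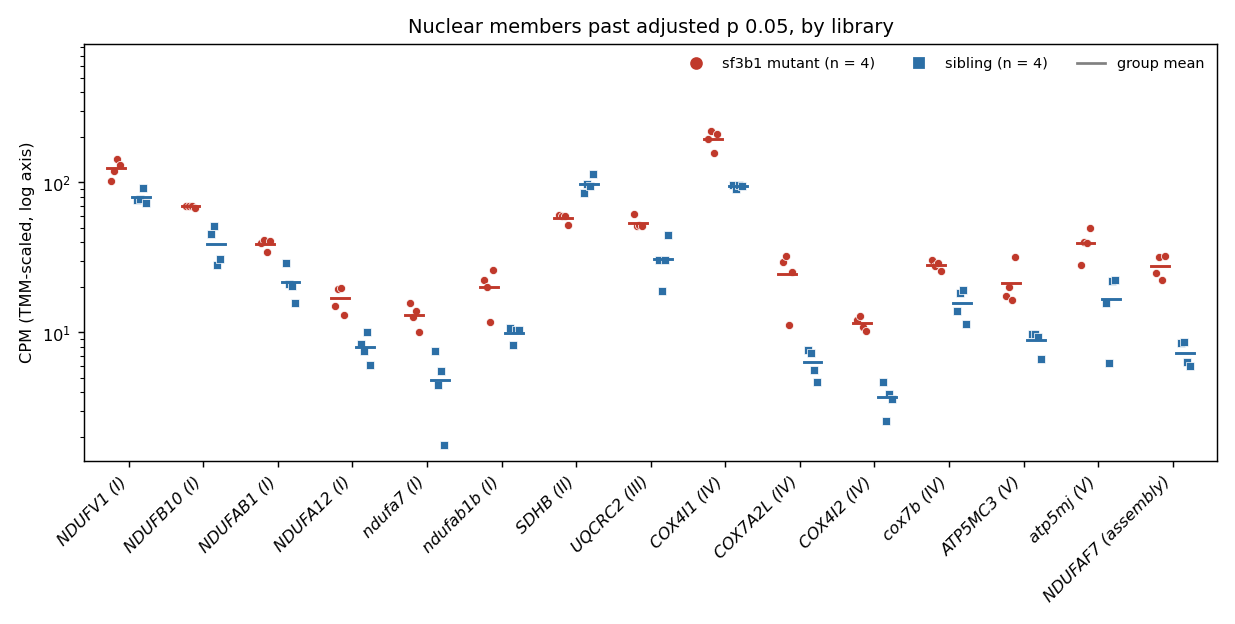
CPM (log axis) of the 15 nuclear members with an adjusted p under 0.05 in each mutant (circles) and sibling (squares) library, with group means as lines and the complex in parentheses. The groups do not overlap for any of the 15, which the choice by adjusted p favours, and SDHB is the only gene lower in mutants.

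Complex I had 38 nuclear members tested, of which 6 were higher, none was lower and 32 did not pass. Without either mutant replicate 2 or sibling replicate 4, 3 were higher. NDUFV1 (ENSDARG00000036438), the core subunit that takes electrons from NADH, stood at 102, 119, 144 and 131 CPM in mutants, against 76.4, 77.7, 91.8 and 72.8 CPM in siblings (0.64 ± 0.159, adjusted p = 0.00973). The mutant libraries were all higher, with replicate 1 closest to the siblings. NDUFB10 (ENSDARG00000028889), an accessory subunit of the membrane arm, measured 70.2, 69.8, 70.2 and 67.2 CPM in mutants, against 45.5, 51.6, 28.3 and 30.8 CPM in siblings (0.83 ± 0.207, adjusted p = 0.01). Its mutant values were nearly equal, and the siblings varied. The mitochondrial acyl carrier protein, which is also a complex I subunit, has 2 genes here and both were higher. NDUFAB1 (ENSDARG00000058463) had 39.2, 41.5, 34.2 and 40.4 CPM, against 29.0, 21.1, 20.6 and 15.8 CPM (0.85 ± 0.224, adjusted p = 0.0141). Its paralogue ndufab1b (ENSDARG00000014915) stood at 22.4, 20.2, 11.7 and 26.2 CPM, against 10.7, 8.30, 10.4 and 10.4 CPM (1.01 ± 0.299, adjusted p = 0.0248), where mutant replicate 3 lay just above the siblings.

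The accessory subunit genes NDUFA12 (ENSDARG00000042469) and ndufa7 (ENSDARG00000036684) were the other 2 that passed. NDUFA12 averaged 16.9 ± 3.37 CPM in mutants and 8.02 ± 1.71 CPM in siblings (1.07 ± 0.303, adjusted p = 0.0203), and ndufa7 averaged 13.1 ± 2.39 and 4.83 ± 2.39 CPM (1.45 ± 0.424, adjusted p = 0.0242). These calls and that of ndufab1b lay near the threshold. Each was lost on leaving out any of several single libraries, at an adjusted p of 0.0503 to 0.0767. The call of NDUFA12 was lost without mutant replicate 2 or 3 or sibling replicate 4 (0.95 to 0.99), and that of ndufa7 without mutant replicate 1, 2 or 3 or sibling replicate 4 (1.17 to 1.46). That of ndufab1b was lost on leaving out any library except mutant replicate 3 (0.86 to 1.05), and without mutant replicate 4 and sibling replicate 2 together (0.77).

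The 32 complex I genes that did not pass ranged from a log2 fold change of -0.53 to one of 1.06. They include NDUFS7 (0.05 ± 0.216), NDUFS8 (0.33 ± 0.204) and NDUFV2 (0.24 ± 0.235), which encode core subunits of the electron-carrying arm. NDUFA9 (0.86 ± 0.331, adjusted p = 0.0791), NDUFB9 (0.62 ± 0.24, adjusted p = 0.0796) and ndufb3 (0.69 ± 0.275, adjusted p = 0.0926) lay just beyond the threshold. NDUFA4, placed here by its symbol although current structures assign its product to complex IV, differed by -0.05 ± 0.196.

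Complex II oxidises succinate and links the chain to the tricarboxylic acid cycle. Its iron-sulfur subunit gene SDHB (ENSDARG00000075768) was the only member of the 111 tested that was lower in mutants. It measured 60.3, 59.6, 59.9 and 52.0 CPM in mutants, against 85.1, 98.1, 94.1 and 113 CPM in siblings. All mutant libraries lay below all sibling libraries, and the log2 fold change was -0.75 ± 0.157 (adjusted p = 0.00322). SDHA (ENSDARG00000016721), the flavoprotein that binds succinate, had 127, 137, 138 and 127 CPM in mutants, against 131, 107, 126 and 134 CPM in siblings (0.09 ± 0.138, adjusted p = 0.734). The groups overlapped in part, with mutant replicates 2 and 3 above every sibling library and sibling replicate 2 below every mutant library. The membrane anchor genes SDHC (-0.06 ± 0.373) and SDHD (ENSDARG00000030139, 0.51 ± 0.341) did not pass, and a second SDHD identifier had a single count in all libraries.

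Complex III passes electrons from ubiquinol to cytochrome c. Besides the mitochondrial MT-CYB, 8 nuclear members were tested, of which 1 was higher and 7 did not pass. The count changed with the setting, with 0 to 3 on leaving out 1 library (0 without mutant replicate 1 or 2 or sibling replicate 2 or 3, 3 without mutant replicate 3), and 4 under DESeq2. UQCRC2 (ENSDARG00000071691), a core protein of the matrix side, stood at 61.2, 51.2, 52.2 and 51.5 CPM in mutants, against 30.3, 18.9, 30.3 and 44.7 CPM in siblings (0.80 ± 0.236, adjusted p = 0.0257). The groups did not overlap, with sibling replicate 4 closest to the mutants. The call was lost without mutant replicate 1 or 2 or sibling replicate 1, 2 or 3 (0.60 to 0.82), and without mutant replicate 4 and sibling replicate 2 together (0.63). UQCRC1 (ENSDARG00000052304), the other core protein, measured 127, 118, 114 and 181 CPM in mutants, against 102, 89.2, 95.3 and 101 CPM in siblings, without overlap. Its log2 fold change of 0.48 ± 0.168 did not pass (adjusted p = 0.0551), but passed without mutant replicate 3 (0.55, adjusted p = 0.0417) and under RLE factors, upper-quartile scaling and DESeq2. The groups were also separate in UQCR10 (0.70 ± 0.25, adjusted p = 0.0611) and uqcrc2a (0.49 ± 0.187, adjusted p = 0.0756). UQCRFS1, the Rieske iron-sulfur protein gene, differed by -0.03 ± 0.189, and CYC1, for cytochrome c1, by 0.45 ± 0.241.

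Complex IV had 17 nuclear members tested, of which 4 were higher, none was lower and 13 did not pass. COX4I1 (ENSDARG00000032970), a subunit that regulates the complex, had 194, 219.6, 156 and 212 CPM in mutants, against 96.3, 90.3, 95.5 and 95.4 CPM in siblings. The siblings were nearly equal and every mutant library was far above them, with a log2 fold change of 1.05 ± 0.146 (adjusted p = 0.000154). Its paralogue COX4I2 (ENSDARG00000022509), known in mammals as an isoform favoured at low oxygen, stood at 12.04, 12.8, 10.8 and 10.3 CPM, against 4.71, 2.58, 3.92 and 3.61 CPM (1.63 ± 0.373, adjusted p = 0.00591). The groups were well apart for both paralogues. COX7A2L (ENSDARG00000054907), known for joining complexes III and IV into supercomplexes, measured 29.3, 32.2, 11.2 and 25.2 CPM, against 7.61, 7.35, 5.63 and 4.66 CPM. Mutant replicate 3 was the lowest mutant library, still above all siblings, and the log2 fold change of 1.96 ± 0.349 (adjusted p = 0.00104) was the largest of all members. cox7b (ENSDARG00000115557), a small subunit gene, averaged 28.3 ± 1.99 CPM in mutants and 15.7 ± 3.73 CPM in siblings (0.84 ± 0.242, adjusted p = 0.0219). That call was lost without mutant replicate 1 or 2 or sibling replicate 1 or 4 (0.72 to 0.85).

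Paralogues of complex IV subunits did not all follow. For COX7A2, the related subunit, the identifiers ENSDARG00000053217 (-0.33 ± 0.347) and ENSDARG00000110700 (0.09 ± 0.404) did not pass, and the second changed sign without mutant replicate 4 or sibling replicate 4 (-0.09 and -0.15). cox6b1 (ENSDARG00000045230) had 1.88, 2.16, 0 and 2.05 CPM in mutants, against 5.71, 7.35, 3.67 and 4.34 CPM in siblings. All mutant libraries lay below the siblings, but the counts were low and the log2 fold change of -1.78 ± 0.871 did not pass (adjusted p = 0.175). cox6b2 (ENSDARG00000037860) stood at 80.6, 124, 58.9 and 155.5 CPM in mutants, against 72.2, 70.9, 86.0 and 72.2 CPM in siblings. The mutants lay on both sides of the siblings, and the difference of 0.47 ± 0.246 passed, among the alternatives run, only without mutant replicate 3 (0.67, adjusted p = 0.0391).

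Of the remaining complex IV paralogues, cox5aa (0.31 ± 0.199), COX5A (0.34 ± 0.27), cox6a1 (0.48 ± 0.274) and cox8a (0.42 ± 0.242) did not pass. COX6A1 (-0.91 ± 1.04) and the COX5B identifiers ENSDARG00000015978 (-0.58 ± 0.404) and ENSDARG00000068738 (-0.18 ± 1.19) had negative values and did not pass either. Mutant replicate 4 had 4.603 CPM of the first COX5B identifier, against 14.9 to 21.0 CPM in the other mutants. Counts of close paralogues can be shared among them, so the values of single identifiers are less certain here.

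ATP synthase had 20 nuclear members, all tested, of which 2 were higher, none was lower and 18 did not pass. The share higher, 10%, was close to the 9.92% of all genes tested. ATP5MC3 (ENSDARG00000017775), a gene for the c subunit of the rotating ring, measured 17.4, 19.98, 16.6 and 32.1 CPM in mutants, against 9.81, 9.83, 9.38 and 6.67 CPM in siblings (1.27 ± 0.301, adjusted p = 0.00735). The mutants were all higher and replicate 4 was the highest. The other genes for this subunit did not pass. atp5mc1 (ENSDARG00000056008) averaged 21.8 ± 4.15 CPM in mutants and 17.1 ± 2.73 CPM in siblings (0.34 ± 0.25), and atp5mc3b (ENSDARG00000009447) 50.1 ± 13.0 and 50.3 ± 6.27 CPM (-0.0036 ± 0.215). The difference in atp5mc3b is so small that its sign turned with the scaling. atp5mj (ENSDARG00000092873), a small subunit of the membrane part, had 28.1, 40.4, 39.6 and 49.6 CPM in mutants, against 15.7, 6.30, 22.1 and 22.3 CPM in siblings, without overlap (1.24 ± 0.335, adjusted p = 0.0153).

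Neither of the main subunits of ATP synthase's catalytic head passed. ATP5F1A (ENSDARG00000010149), its alpha subunit, stood at 497, 449, 468 and 381 CPM in mutants, against 441, 352, 379.7 and 398 CPM in siblings (0.19 ± 0.134, adjusted p = 0.363). ATP5F1B, the beta subunit that makes ATP, averaged 290.5 ± 18.9 CPM in mutants and 270.3 ± 14.4 CPM in siblings (0.10 ± 0.125, adjusted p = 0.632). The groups overlapped in both genes. The gene of a small membrane subunit, atp5mea (ENSDARG00000078113), averaged 5.52 ± 3.02 CPM in mutants and 11.4 ± 4.88 CPM in siblings, and the groups overlapped. Its log2 fold change of -1.04 ± 0.447 did not pass (adjusted p = 0.118), but without mutant replicate 1, the highest mutant library, 1 complex V gene was lower, and it was this gene. The inhibitor genes atp5if1a (-0.11 ± 0.242) and atp5if1b (0.42 ± 0.381) did not pass.

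Among 11 assembly factor genes tested, 1 was higher and 10 did not pass. The share higher, 9.09%, was close to the 9.92% of all genes tested. NDUFAF7 (ENSDARG00000033134), a methyltransferase that modifies a core complex I subunit during assembly, measured 25.01, 31.7, 22.2 and 32.5 CPM in mutants, against 8.51, 8.59, 6.36 and 5.94 CPM in siblings. The gap between the groups was wide, and the log2 fold change was 1.92 ± 0.271 (adjusted p = 0.000168). SDHAF2, which attaches flavin to SDHA, averaged 19.2 ± 3.55 and 17.1 ± 10.1 CPM (0.16 ± 0.351, adjusted p = 0.805).

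Summed over all members of a class, tested or not, nuclear complex I had 882 ± 67.0 CPM in mutants and 666 ± 79.8 CPM in siblings, a ratio of 1.33. The ratios of the summed nuclear members were 0.878 for complex II, 1.36 for complex III, 1.51 for complex IV, 1.16 for complex V and 1.45 for the assembly factors. For the mitochondrially encoded members they were 1.66 in complex I, 2.14 in complex III, 1.59 in complex IV and 2.28 in complex V. In each complex with both kinds, the mitochondrially encoded sum thus had the larger ratio. These sums are led by the genes with the most counts, and no test of them is given.

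The 11 members that were not tested had at most 28 counts in any library. They were NDUFAF8, NDUFB4, NDUFS1, ndufa4b, ndufa9b, UQCRB, cox4i1l, cox7a1, cox8b and further identifiers of SDHD (ENSDARG00000055712) and COX5B (ENSDARG00000113254). cox7a1, the muscle form of its subunit in mammals, had 0, 1, 1 and 0 counts in mutants, against 1, 13, 11 and 13 in siblings. NDUFB4 had no count in any library, and 6, 4, 13 and 15 members had none in mutant replicates 1 to 4, against 3 to 9 in sibling libraries. Such a filter keeps low genes through the group where they are higher, so the counts above describe the tested members only.

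Genes that build and serve the chain were counted by 4 lists outside the members. These lists were also chosen with earlier results of these data known, so their shares are descriptions only. Of 33 genes for mitochondrial gene expression, 13 were higher, none was lower and 20 did not pass, with a median log2 fold change of 0.81. The share higher was 39.4%, against 9.92% of all genes tested. The 3 with the smallest p were tbrg4 (ENSDARG00000074807), an RNA-binding protein of the FASTK family (2.34 ± 0.185, adjusted p = 1.53e-06), and the mitochondrial translation elongation factor genes TUFM (ENSDARG00000104173, 1.41 ± 0.154, adjusted p = 2.42e-05) and GFM1 (ENSDARG00000063624, 1.73 ± 0.207, adjusted p = 4.74e-05). tbrg4 stood at 86.2, 96.1, 94.6 and 71.2 CPM in mutants, against 19.2, 14.98, 17.05 and 17.4 CPM in siblings, far apart in every library. LRPPRC, which stabilises mitochondrial messengers (1.0002 ± 0.155), MTPAP, their poly(A) polymerase (1.73 ± 0.384), and SUPV3L1, a helicase of their decay (2.02 ± 0.268), were also higher. Among the transcription genes, tfb2m was higher (1.004 ± 0.258, adjusted p = 0.0118). TFAM (0.26 ± 0.257, adjusted p = 0.555), POLRMT (0.36 ± 0.23, adjusted p = 0.319) and TFB1M (-0.93 ± 0.598, adjusted p = 0.316) did not pass.

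Of 50 genes tested for assembly of the complexes, cytochrome c, electron transfer flavoprotein and ubiquinone synthesis, 9 were higher and none was lower (median 0.45). The share higher was 18%, against 9.92% of all genes tested. ECSIT (ENSDARG00000062834), a complex I assembly factor, averaged 24.1 ± 3.19 CPM in mutants and 3.96 ± 2.18 CPM in siblings (2.61 ± 0.394, adjusted p = 0.000292), and its partner ACAD9 was higher by 1.01 ± 0.225. COQ7, of ubiquinone synthesis (2.87 ± 0.584, adjusted p = 0.00265), and atpaf1, an assembly factor of ATP synthase (1.36 ± 0.285, adjusted p = 0.00337), were higher as well. In the same list timmdc1 (0.51 ± 0.242), TMEM126A (-0.28 ± 0.356), FOXRED1 (-0.10 ± 0.448) and NUBPL (0.02 ± 1.07) did not pass. Nor did NDUFAF1 among the assembly factor members (0.10 ± 0.389). Neither this list nor that of mitochondrial gene expression had a lower gene by DESeq2 or at an unadjusted p under 0.05. Without mutant replicate 2, only 5 of this list and 8 of the mitochondrial gene expression list passed.

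Of 29 genes of the tricarboxylic acid cycle and pyruvate dehydrogenase tested, 4 were higher and 2 were lower (median 0.03). The 20.7% that passed is close to the 21.3% of all genes tested. DLAT (ENSDARG00000015918), a core enzyme of pyruvate dehydrogenase, averaged 109 ± 12.6 CPM in mutants and 23.3 ± 7.48 CPM in siblings (2.22 ± 0.233, adjusted p = 1.69e-05). PDK2 (ENSDARG00000020876), a kinase that inhibits pyruvate dehydrogenase, averaged 10.9 ± 3.88 and 51.4 ± 16.6 CPM (-2.24 ± 0.302, adjusted p = 0.000119), and PDK4 was also lower (-0.85 ± 0.237). Without mutant replicate 1, mutant replicate 2 or sibling replicate 4, 1 gene of the list was lower.

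Of 17 genes that regulate mitochondrial biogenesis, none was higher and 3 were lower (median -0.54). The share lower was 17.6%, against 11.4% of all genes tested. At an unadjusted p under 0.05, 1 was higher and 5 were lower, DESeq2 called 0 and 5, and 1 was higher without sibling replicate 2. NRF1 (ENSDARG00000000018) and GABPA (ENSDARG00000069289) encode transcription factors that bind promoters of many nuclear respiratory genes in mammals. NRF1 measured 23.0, 23.6, 18.5 and 19.97 CPM in mutants, against 75.8, 68.3, 55.1 and 80.3 CPM in siblings, with a log2 fold change of -1.72 ± 0.193 (adjusted p = 3e-05). GABPA had 59.9, 66.5, 69.5 and 64.0 CPM, against 103, 121, 106 and 100.5 CPM (-0.73 ± 0.149, adjusted p = 0.00276). Neither gene's groups overlapped. SIRT1, a deacetylase gene (-0.54 ± 0.176, adjusted p = 0.0414), lost its call on leaving out any library except mutant replicate 3 and sibling replicate 2 (-0.56 to -0.42), and also with total counts or upper-quartile scaling. The tested coactivator genes PPARGC1A (-0.88 ± 0.66), ppargc1b (0.07 ± 0.21) and pprc1 (0.69 ± 0.282) did not pass.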

How the data were processed

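RNA was measured in 4 mutant and 4 sibling samples. Per the labels' protocols, RNA was column-extracted, depleted of ribosomal RNA with RiboGone and made into libraries with the SMARTer Stranded kit. Per the submitters' processing notes, the build was GRCz10 and the tools included STAR 2.4.2a, Trim Galore, Cufflinks 2.2.1 and Picard. Neither the counter, its strand setting nor the annotation release is named in these sources. The authors' table, as deposited, gives whole-number counts for 31901 Ensembl identifiers, of which 29178 matched a symbol. Identifiers without a symbol took 16.1% to 19.6% of counts in mutants and 12.9% to 15.0% in siblings. Positions and sequences are not given, since no genome of that build was used.

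These counts were fitted with edgeR 4.0.16 in R 4.3.3 (TMM, filterByExpr with smallest count 10 and total 15, glmQLFit with robust=TRUE, glmQLFTest, group as the only term) over 18289 genes. Benjamini-Hochberg adjustment over all of these was used, with a threshold of 0.05. SE is the size of the log2 fold change divided by the square root of F. The code was tested on simulated data. Of 100 genes given a log2 change of size 1, 27 were called, and of 100 given size 2, 78 were. These genes were drawn from those with more counts, and the rest of the 17199 genes tested were given no change. In the data 3902 genes passed, so these shares need not hold for the data. In all, 12 of 117 calls fell on genes given no change and were false, a share above 0.05. In a separate simulation with no change in any gene, 0 calls were made. A gene that did not pass is thus not shown to be unchanged. Pairs of libraries of a group differed by chi-square statistics per degree of freedom of 14.0 to 47.2, more than counting error alone would give. Each was counted as 1 sample, but this check cannot show that the libraries came from separate pools of embryos.

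Members, lists and alternatives were chosen with earlier results of these data known. Named were sf3b1, all mitochondrially encoded members, per nuclear class every passing member up to 8 and the one with the most counts, up to 3 passing genes per list, and tested paralogues of cox4, cox5, cox6a, cox6b, cox7a, cox8 and atp5mc. Further genes named were chosen after their values were seen. Some genes that the rule covers are not reported here. DESeq2 1.42.0 was an alternative.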

Additional observations from a re-analysis of the deposited data

Results flagged for a closer look

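Of 122 groups of 4 libraries examined, 12 held a library far from the other 3 of its group, where chance flags about 1 in 20. Among mitochondrially encoded genes, mt-nd4l was low in sibling replicate 4 (2.73 CPM, the others 14.9 to 17.2) and MT-ND6 high in mutant replicate 1 (182.6 CPM, the others 106 to 115). Mutant replicate 4 was low for SDHB (52.0 CPM, the others 59.6 to 60.3), atp5mc3b (30.9 CPM, the others 54.7 to 59.5) and NDUFB10 (67.2 CPM, the others 69.8 to 70.2). Mutant replicate 1 was high for UQCRC2 (61.2 CPM, the others 51.2 to 52.2). Mutant replicate 3 had 0 CPM of cox6b1 (the others 1.88 to 2.16) and was high for SIRT1 (136 CPM, the others 104 to 109). Sibling replicate 2 was low for ndufab1b (8.30 CPM, the others 10.4 to 10.7) and COX4I1 (90.3 CPM, the others 95.3 to 96.3). Sibling replicate 4 was low for ATP5MC3 (6.67 CPM, the others 9.38 to 9.83), and sibling replicate 3 was high for cox6b2 (86.0 CPM, the others 70.9 to 72.2).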

How the results depend on the processing

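The 6 mitochondrially encoded genes and 10 of the 15 nuclear genes that passed did so under every alternative run: RLE factors, total counts, upper-quartile scaling, library sizes without mitochondrial genes, no filter, DESeq2, the replicate block, each library left out and a pair of libraries left out together, mutant replicate 4 and sibling replicate 2. Without that pair, which had the fewest genes with a count, 10 mitochondrially encoded genes were higher. Mutant replicate 4 was the lowest mutant library in 10 of the 13 genes, and sibling replicate 2 the highest sibling library in 4. Leaving them out thus raises the difference in those genes, and whether this accounts for the added calls was not tested. On leaving out single libraries, 6 to 7 mitochondrially encoded and 9 to 17 nuclear members were higher, 1 to 2 nuclear members lower, and 2921 to 3897 of all genes passed. The medians were 0.55 to 0.86 for mitochondrially encoded and 0.29 to 0.42 for nuclear members, and the difference in mitochondrial share was 0.337 to 0.434 percentage points. The lists then gave 5 to 10 higher genes for assembly, 8 to 14 for mitochondrial gene expression, 3 to 4 higher and 1 to 3 lower for the tricarboxylic acid cycle, and 0 to 1 higher and 2 to 4 lower for regulators. Regulators had 1 higher gene under the replicate block and without the pair, and 5 lower under DESeq2. Nuclear complex III members higher numbered 2 with RLE, 4 with upper-quartile scaling, 4 with DESeq2 and 0 without the pair. Same-numbered libraries did not deviate together (r -0.0393 to 0.0534, and 1 of 4 mutant libraries correlated best with its own number), and with the replicate block 8 mitochondrially encoded and 14 nuclear members were higher among 3782 genes, MT-ND2 (0.60) and MT-ND5 (0.56) being gained. Signs turned for atp5mc3b (RLE 0.00996, upper quartile 0.0639, no filter 0.0034, DESeq2 0.0102, without the pair 0.0859, single libraries -0.10 to 0.17), the COX5B identifiers ENSDARG00000068738 (without the pair 0.51, single libraries -0.72 to 0.23) and ENSDARG00000015978 (without the pair 9.63e-05), COX7A2 ENSDARG00000110700 (-0.15 to 0.37), mt-nd4l (-0.10 to 0.56), MT-ND6 (-0.19 to 0.20) and SDHAF2 (-0.0217 to 0.63), none of which passed. A share without mitochondrial ribosomal or transfer RNA was not run, since no row bears such a symbol. The filter for low counts kept 11 nuclear members out of the test, and why their counts were low was not tested.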
